A study of Homo sapiens with 4 samples.

Results

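The 25 genes of the mitochondrial genome described here are the rows of the deposited gene table whose symbol begins with MT-, out of 13957 genes in all. They comprise 13 mRNAs, 2 ribosomal RNAs and 10 transfer RNAs. The RNA came from MDA-MB-231 Fluc cells, a line derived from a triple-negative breast tumour that carries an inserted luciferase gene. Of the 4 libraries, 2 came from cells treated with 50 μM cordycepin and 2 from cells given only the vehicle, DMSO, in both cases for 2 h, and ribosomal RNA was depleted before stranded 75 base paired-end sequencing. The labels do not say whether the libraries of a group came from separate cultures. Cordycepin is 3′ deoxyadenosine, and its triphosphate is a chain terminator of polyadenylation.

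The value used for each gene is the authors' mean log2 CPM, the counts per 1000000 counts of a library on a log2 scale. It is a single mean over the table, so there is no SD, no value for a library and no test between cordycepin and DMSO, and a high or low level cannot be assigned to either treatment. Whether the mean was taken before or after the log2 step is not given in the sources used here. The depth of each library is unknown. Levels of different genes are compared as CPM per kb, which is the mean transformed back to CPM and divided by the gene length in the table. Of 6 genes listed as marking this line, VIM, CD44, EGFR, AXL and CAV1 had mean log2 CPM values from 8.64 to 11.01, whereas SPARC, also on that list, has no value here. Of 6 genes listed as low or absent, CDH1 and EPCAM, which mark epithelial cells, were both at 3.68 and GATA3 was at 4.48, below the table's median of 4.58. ERBB2, on the same list, was at 6.49 and above that median, and ESR1 and PGR were not analysed here. Of the markers of other cells, COL1A1 (fibroblasts) was at 3.36, and PTPRC and HBB were not analysed here.

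The human mitochondrial genome (mtDNA) is a circle that encodes subunits of the respiratory chain together with the rRNAs and tRNAs needed to translate them inside the organelle. Both of its strands are transcribed into long precursors by a dedicated RNA polymerase. tRNAs lie between most of the coding sequences, and their excision releases the mRNAs, which is known as the tRNA punctuation model. Most of the mRNAs then receive a short poly(A) tail, and in several of them this tail supplies the last bases of the stop codon. Genes on the plus strand of the reference are carried by the heavy-strand transcript, and those on the minus strand by the light-strand transcript.

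All 25 genes had the same start, end and strand in GENCODE release 44, and the reference sequence of the mitochondrial genome in GRCh38 was 16569 bases long. With the vertebrate mitochondrial code, none of the 13 reading frames contained an internal stop codon. The coding sequences of 6 genes ended before their stop codon was complete, with TA in MT-ND1 and a single T in the other 5. These ends are shown because the poly(A) tail has to supply the missing letters. Each sequence runs 5′ to 3′ over the last 15 bases of the gene and the next 15, and the capitals mark the unfinished stop codon.
MT-ND1, chrM:4248-4277, plus strand: tccccctcaaaccTAagaaatatgtctgat
MT-ND2, chrM:5497-5526, plus strand: tactaataatcttaTagaaatttaggttaa
MT-CO3, chrM:9976-10005, plus strand: attgatgagggtctTactcttttagtataa
MT-ND3, chrM:10390-10419, plus strand: tagactgaaccgaaTtggtatatagtttaa
MT-ND4, chrM:12123-12152, plus strand: ccgggttttcctctTgtaaatatagtttaa
MT-CYB, chrM:15873-15902, plus strand: tactcaaatgggccTgtccttgtagtataa

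In each of these 6 genes the next base was the first base of a tRNA gene on the same strand, namely MT-TI, MT-TW, MT-TG, MT-TR, MT-TH and MT-TT. The other 7 coding sequences carried a complete stop codon as annotated, which was AGA in MT-CO1, AGG in MT-ND6 and TAG or TAA in the rest. The last base of the TAA of MT-ATP6, at position 9207, is also the first base of MT-CO3. A cut between these genes cannot leave that base in both mRNAs, so the stop codon of MT-ATP6 is complete only by annotation. Levels of the genes with an unfinished stop codon ranged from 1559 to 5851 CPM per kb with a median of 2037. Those with a complete one as annotated ranged from 1553 to 7154 CPM per kb with a median of 4459. The ranges overlapped, with MT-CO1 at 7154 and MT-ATP6 at 6348 above the first range. MT-ND4L and MT-ND4, which lie on the same mRNA, fall on different sides of this split. The start codon was ATG in 9 genes, ATA in MT-ND1, MT-ND3 and MT-ND5, and ATT in MT-ND2.

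A pair of mRNAs each hold 2 overlapping reading frames. The overlap of MT-ATP8 and MT-ATP6 was 46 bases and that of MT-ND4L and MT-ND4 was 7 bases, and MT-ATP6 and MT-CO3 shared the base at position 9207. These stretches are printed with the overlap in capitals, from the start codon of the downstream gene to the stop codon of the upstream gene. A read that covers an overlap touches both genes, and how such reads were counted is not given in the sources used here.
MT-ATP8/ATP6, chrM:8515-8584, plus strand: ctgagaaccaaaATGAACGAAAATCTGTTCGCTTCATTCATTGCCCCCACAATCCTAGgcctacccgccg
MT-ND4L/ND4, chrM:10748-10778, plus strand: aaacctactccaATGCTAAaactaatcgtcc

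The mitochondrial genes contributed 5.21% of the summed CPM of the table, of which mRNAs made up 84.2%, rRNAs 15.5% and tRNAs 0.224%. In such a share, more mitochondrial RNA and less nuclear RNA cannot be told apart. MT-CO1, the catalytic subunit of cytochrome c oxidase, had the highest mean of all genes, at a mean log2 CPM of 13.43. By mean log2 CPM, 5 mitochondrial genes were among the 10 highest genes of the table. Per kb of the table's length, 8 were among the 10 highest and 12 among the 20 highest. For 83.0% of nuclear genes this length exceeded that of the canonical GENCODE transcript, which lowers their level per kb. This ranking was not repeated with canonical lengths. By mean log2 CPM the 15 genes longer than 75 bases ranked between place 1 and place 155, whereas 8 of the 10 tRNA genes lay below the table's median log2 CPM of 4.58.

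**Figure D1:**
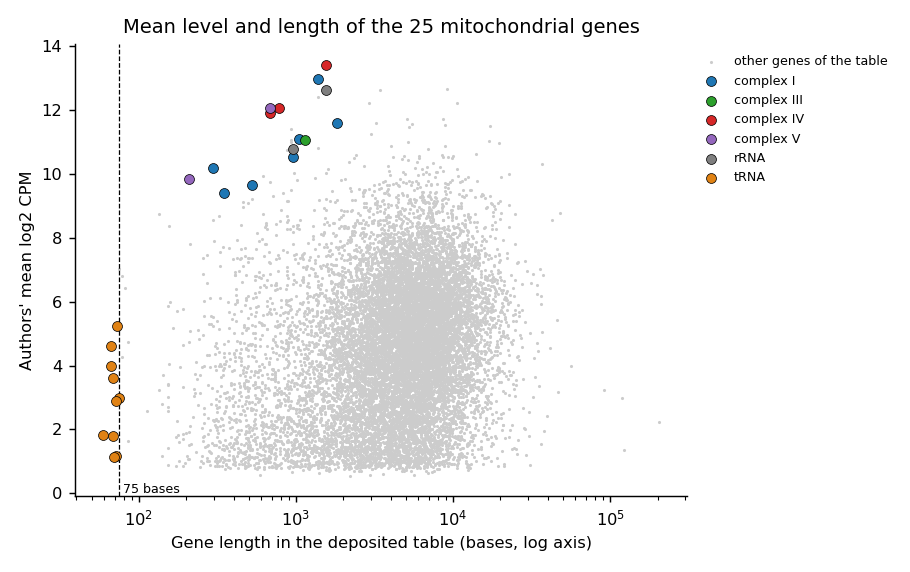
Authors' mean log2 CPM against gene length in bases (log axis) for the genes of the mitochondrial genome, coloured by complex or RNA class, and for the other genes of the table in grey; the dashed line marks 75 bases. The 15 longer mitochondrial genes lie at log2 CPM values of 9.40 to 13.43, and the 10 tRNA genes at 1.15 to 5.24.

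The mRNAs fell into an upper set of 7 and a lower set of 6 by level per kb. The upper set held MT-CO1, MT-ATP6, MT-ND4, MT-CO2, MT-CO3, MT-ATP8 and MT-ND4L, and spanned 3926 to 7154 CPM per kb. The lower set held MT-ND2, MT-ND3, MT-CYB, MT-ND5, MT-ND1 and MT-ND6, and spanned 1553 to 2116 CPM per kb. The median of the upper set was 3.18 times that of the lower set. Between neighbours in this order, the largest ratio was 1.86, between MT-ND4L and MT-ND2, and all other steps were between 1.00 and 1.24. The table gives no spread between libraries, so none of these steps has a replicate check. The division was drawn after the values were seen.

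Complex IV, cytochrome c oxidase, passes electrons to oxygen, and its 3 mtDNA-encoded subunits form the catalytic core. MT-CO1 (position 5904 to 7445) was at 7154 CPM per kb, with a mean log2 CPM of 13.43. MT-CO2 (7586 to 8269), which accepts electrons from cytochrome c, was at 5683 CPM per kb and a mean log2 CPM of 11.92. MT-CO3 (9207 to 9990) was at 5532 CPM per kb and a mean log2 CPM of 12.08. All 3 were in the upper set, and together they made up 36.7% of the mitochondrial CPM.

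Complex V, the ATP synthase, has 2 mtDNA-encoded subunits in its membrane part, both translated from the same mRNA. MT-ATP6 (8527 to 9207), which forms part of the proton channel, was at 6348 CPM per kb with a mean log2 CPM of 12.08. MT-ATP8 (8366 to 8572) was at 4459 CPM per kb with a mean log2 CPM of 9.85. The ratio of 1.42 between reading frames of the same mRNA changed to 1.03 with the length less 74 bases. That length counts the start positions of a 75 base read lying wholly within the gene. How reads that cross from one frame into the other were counted is not given in the sources used here. Neither ratio therefore shows whether the levels of the frames are equal. Subtracting 74 bases changes the level per kb most for the shortest genes. Adding the CPM of the pair and dividing by their joint span of 842 bases gave 6230 CPM per kb.

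Complex I, NADH:ubiquinone oxidoreductase, has 7 mtDNA-encoded subunits, which lie in its proton-pumping membrane arm. They ranged from 1553 to 5851 CPM per kb with a median of 1959. MT-ND4 (10760 to 12137) stood highest at 5851 CPM per kb, with a mean log2 CPM of 12.98, the second highest of all genes in the table. MT-ND4L (10470 to 10766), encoded upstream on the same mRNA, was at 3926 CPM per kb with a mean log2 CPM of 10.19. The ratio of MT-ND4 to MT-ND4L per kb was 1.49, and 1.18 with the length less 74 bases, with the same uncertainty about reads that cross between them.

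The other complex I genes were all in the lower set. MT-ND2 (4470 to 5511) was at 2116 CPM per kb and MT-ND3 (10059 to 10404) at 1959 CPM per kb, with mean log2 CPM values of 11.11 and 9.40. MT-ND5 (12337 to 14148), the longest of the genes at 1812 bases, was at 1702 CPM per kb with a mean log2 CPM of 11.59. MT-ND1 (3307 to 4262) was at 1559 CPM per kb with a mean log2 CPM of 10.54. MT-ND6 (14149 to 14673), the single mRNA of the light-strand transcript, was at 1553 CPM per kb with a mean log2 CPM of 9.67, the lowest level per kb of the 13. With the length less 74 bases it was at 1807 CPM per kb, above MT-ND5 at 1775 and MT-ND1 at 1690. Complex III passes electrons from ubiquinol to cytochrome c, and its mtDNA-encoded subunit, cytochrome b (MT-CYB, 14747 to 15887), was at 1875 CPM per kb with a mean log2 CPM of 11.06.

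Along the heavy-strand transcript the levels showed no steady order. Spearman's rho between level per kb and distance from the first base of MT-TF was -0.16 and Pearson's r was -0.13 across 12 mRNAs, given as a description because the genes share their libraries and a precursor. Without MT-ND1 and MT-CYB, the genes farthest from the median position, rho was -0.36 and r -0.24 across 10 mRNAs. Instead there were steps at particular borders. From MT-ND2 to MT-CO1, across a cluster of 5 tRNA genes, the level per kb was 3.38 times higher. From MT-CO3 to MT-ND3, across MT-TG, it was 2.82 times lower, and from MT-ND3 to MT-ND4L, across MT-TR, it was 2.00 times higher. From MT-ND4 to MT-ND5, across MT-TH, MT-TS2 and MT-TL2, it was 3.44 times lower. All other neighbours differed by ratios of at most 1.49. Across the same 12 mRNAs rho with gene length was -0.063.

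**Figure D2:**
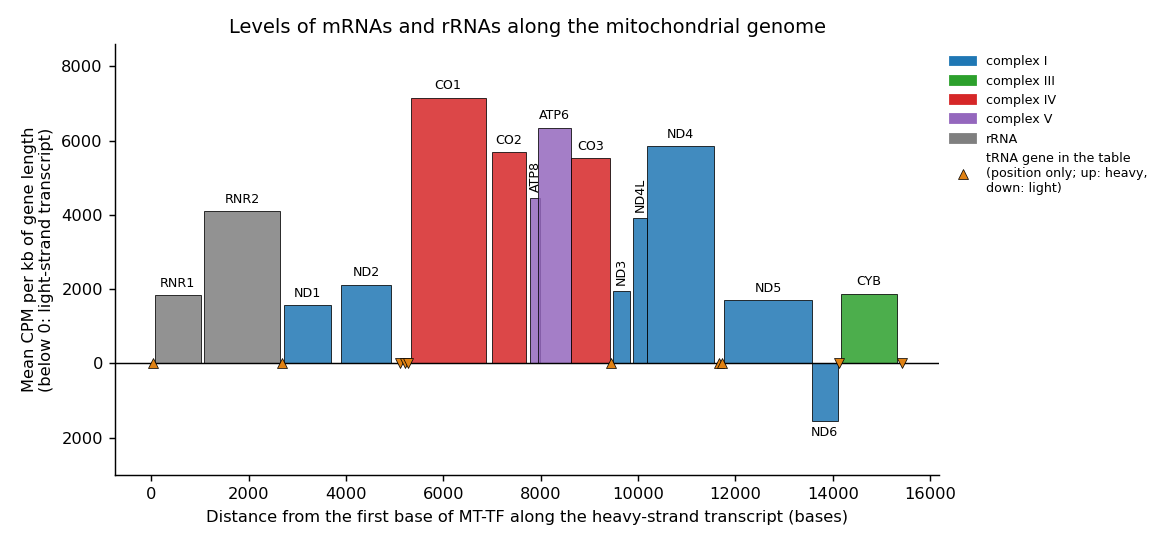
Mean CPM per kb (height) of the mRNAs and rRNAs over their position, as distance in bases from the first base of MT-TF, with bar width to scale with gene length; bars below 0 belong to the light-strand transcript, and triangles mark the positions of the 10 tRNA genes. The upper set, between 3926 and 7154 CPM per kb, lies from MT-CO1 to MT-ND4 and is interrupted by MT-ND3 at 1959.

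The strands differ in base composition, and so do their RNAs. In the 12 heavy-strand mRNAs, adenine made up 26.8% to 38.6% of bases and guanine 6.28% to 16.2%. MT-ATP8 was at both ends, with the highest share of adenine and the lowest of guanine. In MT-ND6 adenine made up 19.6%, cytosine 7.05% and guanine 35.6%, so its guanine share was above and its adenine and cytosine shares were below those of every heavy-strand mRNA. The median level per kb of the heavy-strand mRNAs was 2.70 times that of MT-ND6, and 1.31 times without the 4 genes of the overlapping pairs. MT-ND5, which ends at the base beside the end of MT-ND6 on the opposite strand, was 1.10 times as high as MT-ND6 per kb, and 0.982 times with the length less 74 bases, so their order depends on the length used. Across the 12 heavy-strand mRNAs, and again as a description, rho with level per kb was -0.13 for the share of adenine, -0.41 for cytosine, 0.18 for guanine and 0.27 for thymine, and r was -0.09, -0.36, 0.38 and -0.02.

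The ribosomal RNAs lie first on the heavy-strand transcript. MT-RNR2 (1671 to 3229), the RNA of the large mitochondrial ribosomal subunit, was at 4099 CPM per kb with a mean log2 CPM of 12.64. MT-RNR1 (648 to 1601), that of the small subunit, was at 1831 CPM per kb with a mean log2 CPM of 10.77. MT-RNR2 was thus 2.24 times as high as MT-RNR1. The libraries were depleted of ribosomal RNA, and how far the depletion removed either of these is not given in the sources used here, so the values are what was left after it. MT-RNR2 equalled 1.04 times and MT-RNR1 0.466 times the median mRNA of 3926 CPM per kb, a median that was 1959 without the 4 genes of the overlapping pairs.

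The 10 tRNA genes are 59 to 75 bases long, no longer than a read, and are given as CPM and not compared per length with the other genes. GENCODE annotates 22 mitochondrial tRNA genes, and the other 12 were not analysed here. Those on the light-strand transcript were 5 of 8 and those on the heavy-strand transcript 5 of 14. The 3 highest were neighbours on the light-strand transcript in the cluster between MT-ND2 and MT-CO1. MT-TN, the tRNA for asparagine, had a mean log2 CPM of 5.24 (37.9 CPM). MT-TC, for cysteine, was at 4.61 (24.5 CPM), and MT-TY, for tyrosine, at 3.98 (15.8 CPM). MT-TC and MT-TY overlap by a base at position 5826. The genes at the top and the bottom of this range are printed so that they can be compared, in the orientation of the tRNA, with the anticodon in capitals.
MT-TN, chrM:5657-5729, minus strand: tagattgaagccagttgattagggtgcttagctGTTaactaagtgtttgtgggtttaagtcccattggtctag
MT-TC, chrM:5761-5826, minus strand: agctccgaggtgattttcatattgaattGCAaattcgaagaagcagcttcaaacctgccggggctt
MT-TY, chrM:5826-5891, minus strand: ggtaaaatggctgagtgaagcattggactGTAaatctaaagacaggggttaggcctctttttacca
MT-TF, chrM:577-647, plus strand: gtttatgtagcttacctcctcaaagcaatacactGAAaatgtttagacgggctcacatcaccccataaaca
MT-TE, chrM:14674-14742, minus strand: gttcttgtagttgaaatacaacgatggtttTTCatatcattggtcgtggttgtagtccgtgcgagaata

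MT-TP, for proline, also on the light-strand transcript, had a mean log2 CPM of 3.61. The fifth light-strand tRNA, MT-TE for glutamic acid, was at 1.15, the lowest of the 10. It directly adjoins MT-ND6 on the same strand. On the heavy-strand transcript, the leucine tRNAs MT-TL1 and MT-TL2 were at 3.00 and 2.89. The serine tRNA MT-TS2 was at 1.81, the glycine tRNA MT-TG at 1.79 and the phenylalanine tRNA MT-TF, the first gene on that transcript, at 1.18. Thus 4 of the 5 light-strand tRNAs lay above every heavy-strand tRNA given here, and MT-TE lay just below the lowest of these, MT-TF. Both MT-TE and MT-TF were near the table's lowest value of 0.556, so their order is uncertain. The summed level was 92.5 CPM for the 5 of 8 light-strand tRNAs analysed here and 24.6 CPM for the 5 of 14 heavy-strand ones. These sums are therefore not totals for the strands. For 6 tRNA genes the nearest longer gene is on the same strand, and their levels were between 0.0435% (MT-TS2) and 0.271% (MT-TE) of its CPM. For MT-TN, MT-TC, MT-TY and MT-TP it is on the opposite strand, and the levels were between 0.143% and 1.72% of its CPM. These shares use CPM not divided by length, so they also depend on the length and level of the nearest gene. MT-ND6 beside MT-TE, for example, has 525 bases and was at 815 CPM. The shares therefore do not compare the strands. Whether reads in them came from mature tRNAs or from precursors was not tested.

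**Figure D3:**
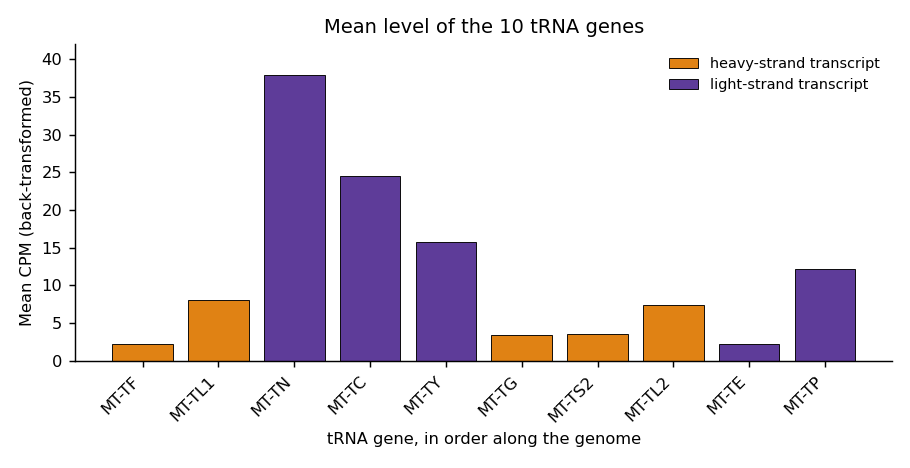
Mean CPM of the 10 tRNA genes of 75 bases or less, in their order along the genome, coloured by the transcript that carries them. The light-strand genes MT-TN, MT-TC, MT-TY and MT-TP are at 12.2 to 37.9 CPM, above every heavy-strand gene, and MT-TE is at 2.21 CPM, just below MT-TF at 2.27.

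Subunits of complexes I, III, IV and V are also encoded in the nucleus, and all but 1 of the nuclear genes listed for them were in the table. In each complex all mtDNA-encoded subunits were above all of these nuclear-encoded ones per kb. For complex I, the median was 1959 CPM per kb for the 7 mtDNA-encoded and 20.8 for 36 nuclear-encoded subunits, a ratio of 94.2. The nuclear genes ranged from 0.901 for NDUFV2 to 203 for NDUFS5. NDUFV2 had a mean log2 CPM of 1.29, near the table's lowest value of 0.556. For complex III, MT-CYB was 50.3 times the median of 9 nuclear genes, which ranged from 8.14 for UQCRB to 108 for CYC1. Complex IV had a ratio of 116 over 11 nuclear genes, from 12.6 for NDUFA4 to 333 for COX8A. Complex V had a ratio of 151 over 17 nuclear genes, from 11.2 for ATP5PO to 316 for ATP5F1B.

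The sizes of these ratios depended on the length used for nuclear genes. In the table the length exceeded that of the canonical GENCODE transcript for 83.0% of nuclear genes, which lowers their level per kb. With the canonical length the ratios were 30.9, 36.0, 45.1 and 47.2 for complexes I, III, IV and V. The lowest mtDNA-encoded subunit was then still 6.90, 10.6, 16.6 and 11.1 times the highest nuclear-encoded one. The libraries were depleted of ribosomal RNA and not selected for poly(A), per the labels.

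**Figure D4:**
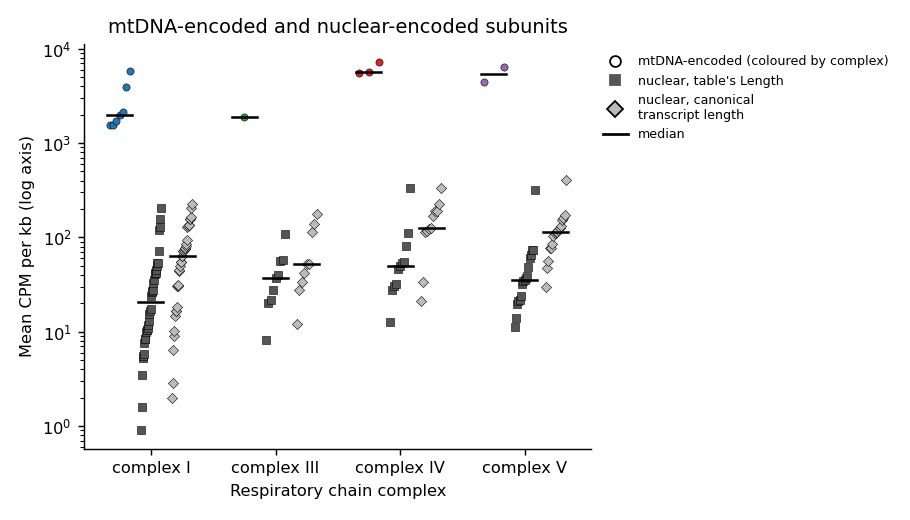
Mean CPM per kb (log axis) of mtDNA-encoded subunits (circles) and of nuclear-encoded subunits by the table's length (squares) or the canonical transcript length (diamonds) for each complex; each point is a gene and the lines are medians. The mtDNA-encoded subunits lie between 1553 and 7154, above all nuclear-encoded ones.

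A list of 32 nuclear genes that act on mitochondrial DNA or RNA was also examined, and all 32 were in the table, at levels from 1.10 to 57.1 CPM per kb with a median of 10.8. The highest per kb were HSD17B10, a subunit of the RNase P that cuts tRNAs at their 5′ ends, at 57.1, the oligoribonuclease REXO2 at 32.5 and SSBP1, the single-stranded DNA-binding protein of the mitochondrion, at 31.4. The lowest were PRORP, the nuclease subunit of the same RNase P, at 1.10, MTERF4, which acts in the assembly of the mitochondrial ribosome, at 1.46 and TFB1M, an rRNA methyltransferase, at 1.81. These levels and the medians below use the table's length, and canonical lengths were not applied to this list, so the order depends on that length. By mean log2 CPM, LRPPRC was the highest of the 32 at 8.16 and TFB1M the lowest at 2.90, while MTERF4, with a length of 9938 bases, was at 3.85. By group, the median was 3.49 CPM per kb for 9 genes listed under transcription, and 9.42 for the 7 left without TFB1M and MTERF4, a choice made after the values were seen. The medians were 14.1 CPM per kb for 5 replication genes and 19.4 for 4 genes of RNA cleavage. They were 7.65 for 11 genes of polyadenylation and RNA stability and 13.1 for 3 genes of RNA decay. MTPAP, the mitochondrial poly(A) polymerase, was at 2.95 CPM per kb, with a mean log2 CPM of 4.63, and was named for its role after its value was seen.

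Nuclear chromosomes carry copies of mitochondrial genes, and 14 such copies were in the table. Their summed CPM was 4.57% of that of the mitochondrial genes. A block of 7 copies on chromosome 1, between positions 629062 and 634922, held 98.3% of it. MTCO1P12 had a mean log2 CPM of 10.02, which was 9.43% of the CPM of MT-CO1. MTATP6P1 was at 9.74, or 19.8% of MT-ATP6, and MTND2P28 at 8.28, or 14.1% of MT-ND2. MTCO3P12 was at 6.67, or 2.35% of MT-CO3, and MTND1P23 at 4.39, or 1.41% of MT-ND1. The remaining 9 were between 0.0489% and 0.487% of the mitochondrial gene. How reads that map to more than 1 place were counted is not given in the sources used here, so the split between a gene and its copy is uncertain.

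To describe how alike these sequences are, every 75 base window of the reference mitochondrial genome was searched for in the nuclear chromosomes, on both strands and without mismatches. Of 16495 windows, 2383 (14.4%) were also found in the nucleus, and 82.7% of these were in the chromosome 1 block. By gene, 36.6% of the windows of MT-CO1, 34.4% of MT-ND2, 28.4% of MT-RNR1 and 28.0% of MT-ATP6 also occurred in the nucleus. The shares were 17.1% for MT-ND1, 14.9% for MT-CO3, 10.5% for MT-CO2, 7.10% for MT-ND6, 3.37% for MT-RNR2 and 0.173% for MT-ND5. No window of MT-ATP8, MT-ND3, MT-ND4L, MT-ND4 or MT-CYB did. The 7 copies in the chromosome 1 block were 97.6% to 98.7% identical to their mitochondrial gene. The order of the copies by CPM did not follow their share of identical windows. MTND1P23 shared 48.3% of its windows with MT-ND1 and was at 21.0 CPM, whereas MTATP6P1 shared 28.0% with MT-ATP6 and was at 856 CPM. Adding the copies to the genes they resemble left the 7 genes of the upper set the same, as did counting the length less 74 bases.

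**Figure D5:**
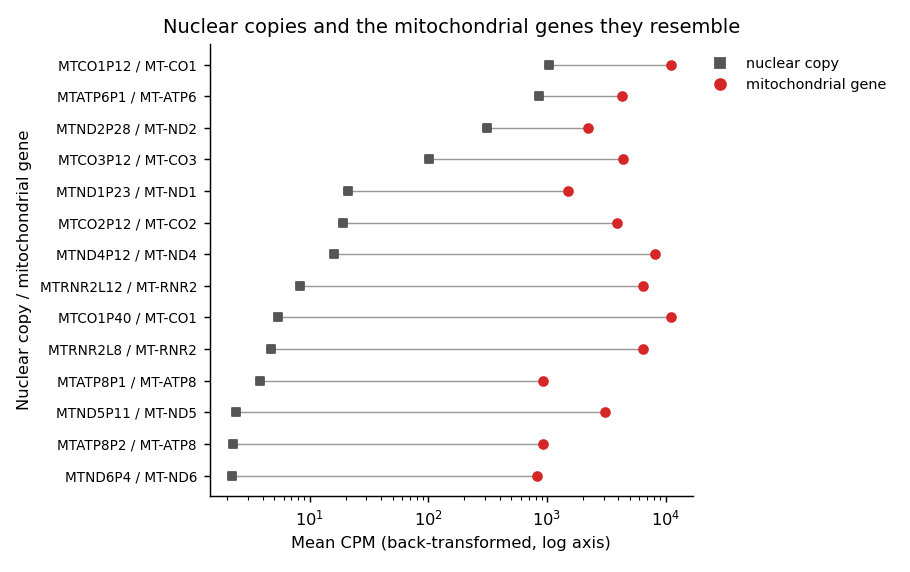
Mean CPM (log axis) of the 14 nuclear copies (squares) and of the mitochondrial gene each resembles (circles), ordered by the level of the copy. The copies MTCO1P12, MTATP6P1 and MTND2P28 lie at 311 to 1040 CPM, and every copy is below its mitochondrial gene.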

How the data were processed

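Cells were sampled in 2 groups of 2, cordycepin and DMSO, from the treatment labels. By the study's methods, GRCh38.p13 was the genome the authors mapped to and rsubread the counter; the submitters' processing notes list hg38, TopHat, HTSeq, DESeq and Cufflinks, and which made the table is not given in the sources used here. The authors deposited 1 table, with a mean log2 CPM and a length for each gene; its scaling, prior count and filter on low counts are not given either. Its other 4 value columns hold the authors' own comparison (log2 fold change, F statistic, p-value and adjusted p-value) and were not used, and 0 columns hold values per sample. Hence no test was made, and depth and spread are unknown.

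Means were transformed back as 2 to the power of log2 CPM and divided by length in kb. The members, gene lists and complexes were chosen with earlier results of these data known. All MT- genes were named, with the highest and lowest nuclear subunit of each complex, the 3 highest and lowest machinery genes and the 5 highest nuclear copies; others were named after their values were seen. Sequences and windows came from GRCh38 and GENCODE release 44, over 24 nuclear chromosomes. The window search was tested on artificial sequences with planted copies. Alternatives were the length less 74 bases, overlapping genes left out or joined, nuclear copies added, canonical lengths, low genes left out and other denominators. Biopython 1.88, matplotlib 3.10.9, pandas 2.3.3, scipy 1.17.1 and numpy 2.4.6 were used under Python 3.11.15.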

Additional observations from a re-analysis of the deposited data

How the results depend on the processing

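No paired analysis was possible because each gene has a single mean over the libraries, and for the same reason no replicate could be left out. As no spread is known, a value was counted as moved when its first 3 digits changed, which 34 recomputed values did and 14 did not. The share of 5.21% became 5.24% against 1000000 CPM, 4.44% without rRNA genes, 5.20% without tRNA genes and 5.45% with nuclear copies. With the length less 74 bases, the median of the mRNAs was 5229 CPM per kb, the range among heavy-strand mRNAs 4.45 times, their ratio to MT-ND6 3.14, rho with position -0.20 and r -0.13, and the medians of complexes I, III, IV and V were 2278, 2005, 6372 and 7031. Without the 4 overlapping genes, the median was 1959, the ratio to MT-ND6 1.31, rho -0.17, r -0.22 and complex I 1702, with no gene left for complex V. With overlapping pairs as 1 unit, the median was 2116, the ratio 2.46, rho -0.20, r -0.14, complex I 1831 and complex V 6230. With nuclear copies added, the range was 4.95, r -0.16, complex IV 5710 and complex V 6047. The ratios of mtDNA-encoded to nuclear-encoded subunits with canonical lengths were 30.9, 36.0, 45.1 and 47.2, and for complex I 72.5 over nuclear genes above the median log2 CPM. Without TFB1M and MTERF4, an alternative chosen after seeing the data, the median of the transcription list was 9.42 CPM per kb.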
